A study of Homo sapiens with 68 samples.

Results

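Genes of glucose breakdown and of the response to low oxygen were followed in A673 cells, a human Ewing sarcoma line that carries the EWS/FLI fusion, during treatment with 3 cytotoxic compounds. A list of 35 such genes was set by name, and 34 of them were measured here, out of 11882 genes with a probe set of their own on the array; CA9 was not analysed here. The members were the glucose transporters SLC2A1 and SLC2A3, the hexokinases HK1 and HK2, 15 further glycolytic enzymes, the pyruvate enzymes LDHA, LDHB and PDK1, the oxygen-sensing genes HIF1A, EGLN3 and KDM3A, the secreted products VEGFA, ADM and STC1, the intracellular products BNIP3, BNIP3L, NDRG1, P4HA1 and P4HA2, and TXNIP. Each gene was represented by its brightest probe set.

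Cells received ARA-C (cytarabine, a nucleoside analogue that blocks DNA synthesis), doxorubicin (an anthracycline that poisons topoisomerase II), puromycin (which ends peptide chains early on the ribosome) or DMSO vehicle, and RNA was hybridised to 68 Affymetrix high-throughput arrays. ARA-C at 170 and 340 nM, doxorubicin at 60 and 120 nM (59.88 and 119.76 nM in the labels) and puromycin at 90 and 180 nM stood for the EC50 and 2 times the EC50, each at 24 h, day 3 and day 5. The question was whether the cytotoxic agents doxorubicin and puromycin changed expression as ARA-C did. Most treated groups had 3 arrays, doxorubicin 120 nM on day 5 had 2, and puromycin 180 nM on day 5 had 1. All groups were the same cell line, grown in the same medium with 10% fetal calf serum and 2 mM pyruvate, and they were labelled as biological replicates. Vehicle replicates 1 to 3 lay in rows A-F of the array plate and replicates 4 to 6 in rows G-H, with 17 arrays in all and 2 in rows A-F on day 3. Each treated group was set against vehicle of its own time and plate rows. ARA-C 340 nM and the single array of puromycin 180 nM on day 5 lay in rows G-H and all other treated groups in rows A-F, so that for ARA-C the dose and the plate rows cannot be told apart.

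Glycolysis splits glucose into pyruvate in the cytosol, and lactate dehydrogenase turns pyruvate into lactate where mitochondria do not take it up. When oxygen is scarce, the hypoxia-inducible factors (HIF1A or EPAS1 with ARNT) escape hydroxylation and decay and switch on glucose transporters, glycolytic enzymes and secreted factors such as VEGFA, and Ewing sarcoma cells, like many tumour cells, also run glycolysis in oxygen. The factors bind a short core motif, ACGTG or GCGTG, in promoters and enhancers of these genes, and their activity rests mainly on protein stability, which an array does not measure.

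Of the 68 arrays, 1 was left out: puromycin 90 nM day 5 replicate 3. It carried signals of 30550 for HBB and 28910 for HBA2, against at most 123 and 190.5 in the other 67. The blood markers PTPRC and CD74 were also above the range of the other arrays, and CD3D (40.2) was within it. The Ewing sarcoma markers STEAP1 (30.9), NKX2-2, CD99 and EWSR1 were below that range, but FLI1 (3919) was above it (at most 3762). Against the remaining arrays the left-out array had a median correlation of 0.603, and the typical array one of 0.965. In the other 67 arrays all 5 measured Ewing sarcoma markers of 6 listed were present, CD99 between 6792 and 13610. The 5 measured blood markers of 6 summed to at most 377 per array. Array means were nearly equal, medians were 97.95 to 221, and 0.218% to 22.3% of signals lay under the floor of 10 that was set before log2 was taken. The number of arrays limits the precision. In these bulk RNA samples, fewer cells with a transcript and less transcript per cell cannot be told apart.

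ALDOC, ENO2 and BNIP3 were among the members lower on day 5 in every tested treated group, and ADM had the largest rise of the 34 genes. Promoter sequences of these 4 genes, 250 bases up to the gene start of the RefSeq table (GRCh38.p14), are given so that the hypoxia core motif can be read beside the values. Letters run 5′ to 3′ on the strand of the gene, and capitals mark ACGTG or GCGTG on either strand (CACGT or CACGC on the printed one). The E-box CACGTG, a site of other factors, holds the motif on both strands and counts as 2 matches. The windows lie at chr17:28576896-28577145 (minus strand) for ALDOC, chr12:6914330-6914579 (plus) for ENO2, chr10:131981924-131982173 (minus) for BNIP3 and chr11:10304823-10305072 (plus) for ADM.
ALDOC: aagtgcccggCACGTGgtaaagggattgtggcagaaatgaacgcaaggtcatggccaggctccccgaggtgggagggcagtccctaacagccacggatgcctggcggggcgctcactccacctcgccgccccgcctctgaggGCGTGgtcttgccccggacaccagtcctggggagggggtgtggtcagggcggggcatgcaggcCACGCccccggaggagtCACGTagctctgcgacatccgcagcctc
ENO2: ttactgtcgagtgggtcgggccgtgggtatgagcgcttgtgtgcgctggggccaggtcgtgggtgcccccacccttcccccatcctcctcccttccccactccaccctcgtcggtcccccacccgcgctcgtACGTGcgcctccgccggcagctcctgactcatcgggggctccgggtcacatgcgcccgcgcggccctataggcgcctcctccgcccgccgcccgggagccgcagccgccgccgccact
BNIP3: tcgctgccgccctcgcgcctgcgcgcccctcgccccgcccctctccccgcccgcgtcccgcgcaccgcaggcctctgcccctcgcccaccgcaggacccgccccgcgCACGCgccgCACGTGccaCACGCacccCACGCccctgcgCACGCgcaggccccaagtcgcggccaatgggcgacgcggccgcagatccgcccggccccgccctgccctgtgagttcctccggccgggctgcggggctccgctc
ADM: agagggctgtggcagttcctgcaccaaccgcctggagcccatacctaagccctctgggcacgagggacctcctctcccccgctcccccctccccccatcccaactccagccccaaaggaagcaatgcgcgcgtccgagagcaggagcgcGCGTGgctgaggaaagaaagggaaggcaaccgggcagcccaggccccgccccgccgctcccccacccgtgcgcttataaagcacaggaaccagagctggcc
The ALDOC window held 5 matches and that of BNIP3 6, each with 1 E-box, and ENO2 and ADM held 1 match each. Of the other members lower on day 5 in every tested treated group, P4HA2 had 0 matches in its window. PFKL had 1, and the windows of TXNIP had 1 and 2. Promoter windows were found for 29 members, all but BNIP3L, NDRG1, STC1, SLC2A3 and VEGFA. Of their 54 windows, 31 (57.4%) held ACGTG or GCGTG, and so did 15172 of 35116 windows of all genes (43.2%). Some genes have windows at several annotated starts, and by gene 23 of 29 members (79.3%) and 12945 of 27305 genes (47.4%) had a window with the motif. ACGTG alone was in 18.5%, GCGTG in 32.2% and CACGTG in 6.35% of all windows. A match of 5 letters describes the sequence only.

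Vehicle cultures themselves moved over time, which bears on every day 5 comparison because it uses the same vehicle arrays. In rows G-H, 14 of 34 members were higher and 5 lower on day 5 than on day 3, where 21% of all genes were higher and 10.2% lower (limma, Benjamini-Hochberg adjusted over 22215 probe sets, threshold 0.05 throughout). In rows A-F 7 members were higher and 0 lower, against 2.9% and 4.08% of all genes; the 7 were ALDOC, P4HA2, ENO2, BNIP3, NDRG1, BNIP3L and PGK1. Without vehicle replicate 1 of day 3, PGK1 (0.27, limma adjusted p = 0.46) and BNIP3L (0.71, 0.17) were not called. The median change of the members was 0.35 on the log2 scale in rows G-H, where all genes had 0.13, and 0.24 in rows A-F, where all genes had 0.00. Earlier, between 24 h and day 3, only BNIP3L was higher and no member lower in rows A-F (0.858% and 0.707% of all genes), a call lost without any 1 of 4 arrays. In rows G-H BNIP3 and BNIP3L were higher and PKM and ADM lower on day 3 than at 24 h (1.69% and 2.36%). A shift of all arrays to a common median gave 8 higher and 9 lower in rows G-H between days 3 and 5, and 1 higher and 2 lower between 24 h and day 3.

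The vehicle cultures of the plate parts also diverged on day 5. Of the 34 members, 10 were higher and 9 lower in rows G-H than in rows A-F on day 5 (15.4% and 8.62% of all genes), and 2 higher and 14 lower with a common median. At 24 h only PFKP was lower, a call lost without any 1 of 5 arrays (0 higher; 0.185% higher and 0.463% lower over all genes), and on day 3 only ADM, lost without any 1 of 4 arrays (0 higher; 0.0926% and 0.917%). TXNIP showed the largest gap, at 8100, 7030 and 7821 in rows G-H and 1374, 1498 and 1150 in rows A-F, a log2 difference of 2.52 ± 0.18 (SE; adjusted p = 8.6e-16). For this reason the main comparisons set each treated group against vehicle of its own rows only. Vehicle of both plate parts entered only the alternatives given at the end.

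With ARA-C, more members were called on day 5 than at 24 h or on day 3, and at 170 nM most of them were lower. At 170 nM, 4 members were higher and 3 lower at 24 h, where 6.12% of all genes were higher and 12.1% lower. On day 3 there were 4 higher and 0 lower (7.33% and 5.55%), and on day 5 there were 3 higher and 17 lower (8.66% and 39.3%). The member median on day 5 was −0.38 and that of all genes −0.32, so that the 17 of 34 lower members stand beside a fall over a large part of the array. Quantile normalization gave 10 and 1 at 24 h, 7 and 1 on day 3 and 7 and 14 on day 5, and a common median 6 and 1, 4 and 5, and 5 and 12. At 340 nM, 9 were higher and 0 lower at 24 h (9.06% and 1.78% of all genes), 8 and 5 on day 3 (14.8% and 8.15%), and 9 and 12 on day 5 (14.3% and 21.3%). With a common median the 340 nM counts were 3 higher and 11 lower at 24 h, 5 and 6 on day 3 and 10 and 10 on day 5, where the median of all genes before that shift was 0.23 at 24 h, and quantile normalization gave 11 and 14 on day 5. Without the 24 h replicate 2, where 0.92% of signals lay under the floor, 6 members were higher at 340 nM and 24 h, and 5 without vehicle replicate 6. At 170 nM, replicate 3 of day 3 had 0.218% of signals under the floor and a median signal of 221. Without that array 3 members were higher and 0 lower at 170 nM on day 3. The 7 calls at 170 nM and 24 h were 3 or 4 without any 1 of 5 arrays (all 3 vehicle arrays and ARA-C replicates 2 and 3).

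With doxorubicin, too, more members were lower on day 5 than earlier. At 60 nM, 2 members were higher and 3 lower at 24 h (2.34% and 4.38% of all genes), 6 and 7 on day 3 (8% and 12.1%), and 3 and 12 on day 5 (11.8% and 27.1%). At 120 nM the counts were 4 and 5 at 24 h (6.78% and 10.4%), 5 and 5 on day 3 (8.94% and 10.4%), and 5 and 18 on day 5 (14.2% and 40%). Member medians on day 5 were −0.22 at 60 nM and −0.43 at 120 nM, beside −0.12 and −0.29 over all genes. With a common median 3 were higher and 0 lower at 60 nM and 24 h, and without doxorubicin replicate 3 or vehicle replicate 1 the 24 h counts were 2 and 0 (2 and 1 without vehicle replicate 3).

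With puromycin, and signals scaled as deposited, falls outnumbered rises at every tested dose and time. At 90 nM, 4 members were higher and 9 lower at 24 h (2.32% and 12.4% of all genes), 0 and 5 on day 3 (0.438% and 3.65%), and 1 and 8 on day 5 (1.91% and 3.98%). At 180 nM, 5 were higher and 6 lower at 24 h (2.87% and 6.08%) and 2 and 7 on day 3 (3.31% and 8.55%). With a common median the counts at 24 h were 12 higher and 3 lower at 90 nM and 5 and 3 at 180 nM, and on day 3 0 and 0 at 90 nM and 3 and 4 at 180 nM; quantile normalization gave 6 and 5 at 180 nM on day 3. At 90 nM, 0 members were called on day 3 without puromycin replicate 1 or vehicle replicate 1, 3 without puromycin or vehicle replicate 2, and 0 and 4 on day 5 without puromycin replicate 2. At 180 nM and 24 h, 3 and 4 were called without vehicle replicate 1. The single array of 180 nM on day 5 allows no test of the condition. There 26 of 34 members lay below the vehicle mean, with a median of −0.81 against −0.43 over all genes. ALDOC had 63.8 (a log2 difference of −5.24), TXNIP 367 (−4.38), ENO2 226 (−3.92), BNIP3 719 (−2.61) and ADM 273 (1.46), and the log2 ratio of the 3′ to the 5′ ACTB control probe sets, which rises as RNA decays, was 4.13.

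**Figure D1:**
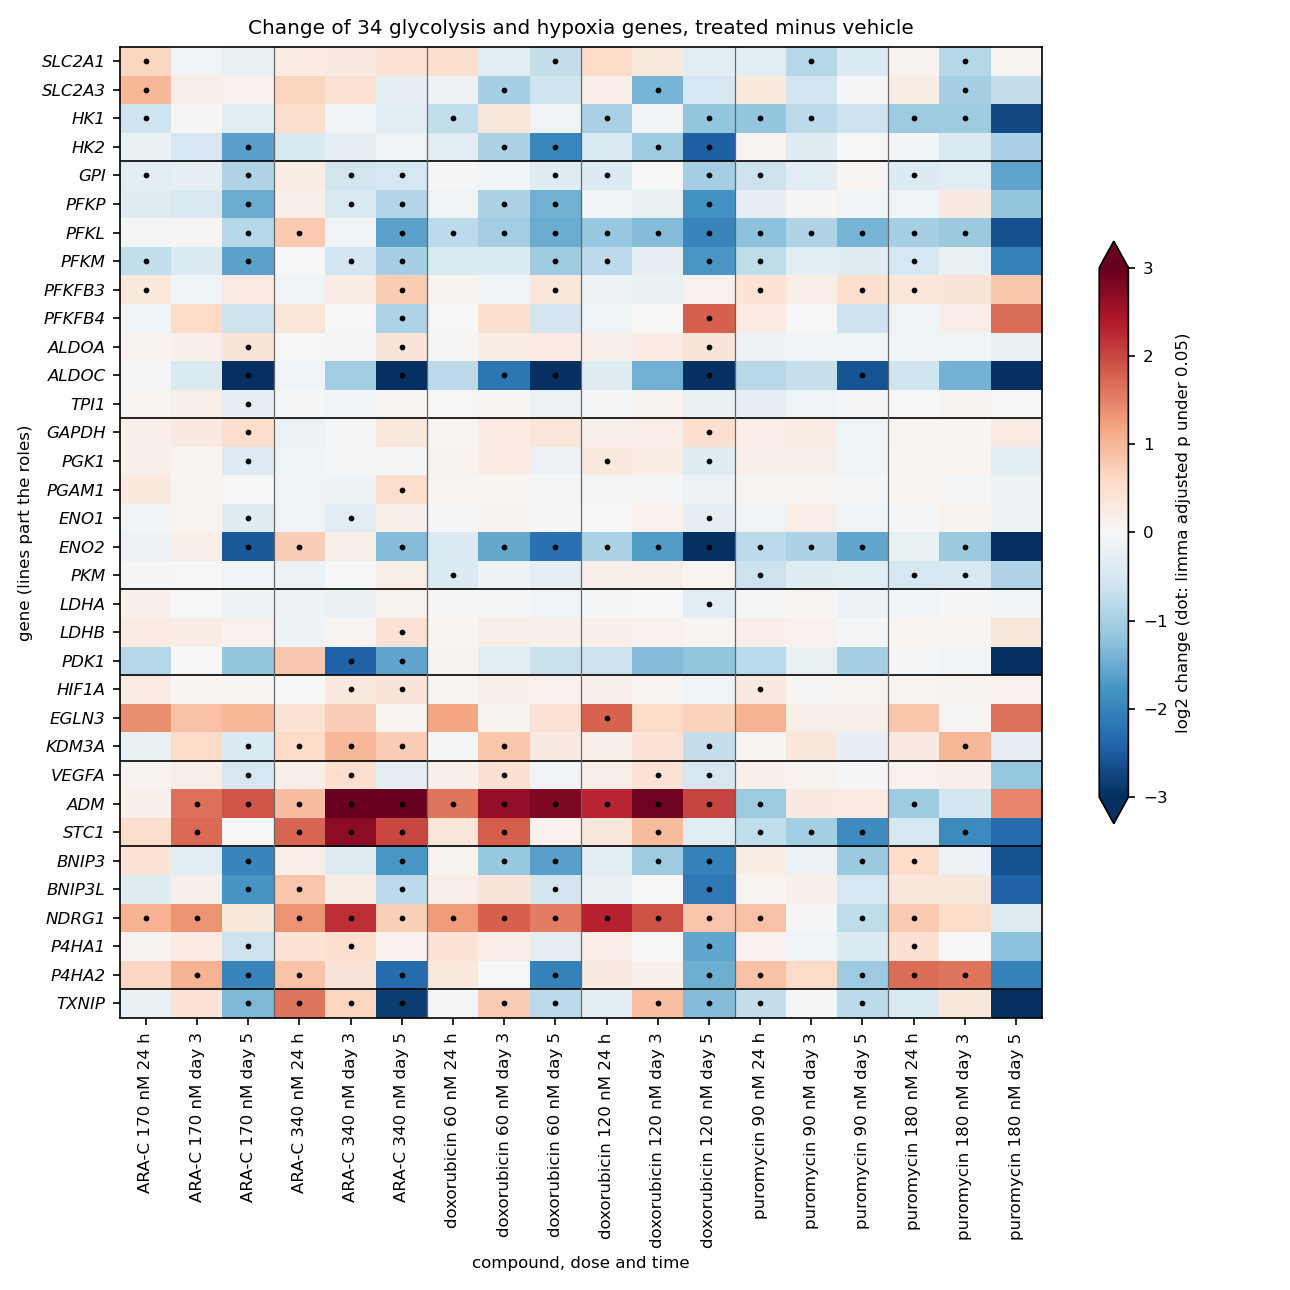
Log2 change of the 34 genes (rows, by role) in each treated group against vehicle of the same time and plate rows (columns), with a dot where the limma adjusted p was under 0.05; the single array of puromycin 180 nM on day 5 was not tested. The lower enzymes of glycolysis, ENO2 apart, stay pale, while ALDOC, ENO2, BNIP3, P4HA2 and TXNIP are lower on day 5 and ADM is higher with ARA-C and doxorubicin.

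In all 5 tested day 5 comparisons 6 members were lower, namely PFKL, ALDOC, ENO2, BNIP3, P4HA2 and TXNIP, where 181 of 11882 genes (1.52%) were lower in all 5. No member was higher in all 5, where 0.446% of all genes were. With puromycin 90 nM, which had 2 arrays, the calls of ALDOC (adjusted p = 0.085), P4HA2 (0.22) and TXNIP (0.094) were lost without its replicate 2. These comparisons share vehicle arrays, and the arrays also differ in RNA quality. The log2 ratio of the 3′ to the 5′ ACTB control probe sets on day 5 averaged 3.71 with ARA-C 170 nM, 2.48 and 4.55 with doxorubicin 60 and 120 nM and 2.28 with puromycin 90 nM, against 1.98 in vehicle of rows A-F. It was 1.57 with ARA-C 340 nM and 0.61 in vehicle of rows G-H. The part of RNA quality in the day 5 changes was not tested. The summed Ewing sarcoma markers on day 5 were 19060 to 26080 with ARA-C 170 nM and 17490 to 18560 with doxorubicin 120 nM, against 28420 to 29400 in vehicle of rows A-F.

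Glucose enters through the transporters SLC2A1 (GLUT1) and SLC2A3 (GLUT3) and is trapped by hexokinase. SLC2A1 was higher in 1 and lower in 3 of 17 tested comparisons, with changes of −0.85 to 0.65, and SLC2A3 likewise in 1 and 3, with changes of −1.39 to 1.00. The SLC2A1 rise (ARA-C 170 nM at 24 h; 0.50 without ARA-C replicate 2, limma adjusted p = 0.22) and its falls with puromycin on day 3 (at 90 nM −0.47 without puromycin replicate 2, 0.48) were each lost on leaving out single arrays. SLC2A3 had 506.5, 484 and 511 with ARA-C 170 nM at 24 h, against 309, 275 and 184 in vehicle, a change of 1.00 ± 0.24 (SE; limma adjusted p = 0.0026). Its second probe set gave −0.20 there, so that the direction rests on the brightest one. On day 3 SLC2A3 was 215, 90.9 and 162 with doxorubicin 120 nM and 356 and 413 in vehicle, a change of −1.39 ± 0.27 (limma adjusted p = 0.00011).

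The hexokinases differed in when they fell. HK2, the isoform that tumours commonly raise, was 441 and 519.5 with doxorubicin 120 nM on day 5, against 2904, 2398 and 2626 in vehicle. All doxorubicin arrays lay below all vehicle arrays, and the log2 change was −2.46 ± 0.19 (limma adjusted p = 5.9e-16). Doxorubicin 60 nM gave −1.97 ± 0.17 and ARA-C 170 nM −1.64 ± 0.17 on day 5. With puromycin 90 nM HK2 was 2561 and 2635, within the range of its vehicle arrays (−0.02 ± 0.19). At ARA-C 340 nM, HK2 was 1343, 1095 and 1466 and its vehicle in rows G-H 1464, 1284 and 1529, a vehicle level below that of rows A-F.

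HK1, the isoform of most tissues, fell mostly at 24 h, in 5 of 6 comparisons. All 5 used the same vehicle arrays of rows A-F, and vehicle of rows G-H had 3135, 2370 and 2184 (−0.51 ± 0.19, not called). With ARA-C 340 nM in rows G-H, HK1 was 3751, 3093 and 4204 at 24 h (0.53, not called). The ACTB 3′ to 5′ log2 ratio at 24 h averaged 0.65 in vehicle of rows A-F and 1.25 to 1.79 in its treated groups. Its part in these falls was not tested. On day 3 HK1 fell in 2 of 6 and on day 5 in 1 of 5. It was 1626, 1689 and 1530 with puromycin 90 nM at 24 h and 3665, 3663 and 3521 in vehicle, a change of −1.16 ± 0.19 (limma adjusted p = 1.5e-05). The fall passed the test in 8 of 17 comparisons, among them both puromycin doses at 24 h and on day 3 (−0.77 to −1.16). Puromycin 90 nM on day 5 did not pass (−0.65 ± 0.21, limma adjusted p = 0.059). The largest fall was with doxorubicin 120 nM on day 5 (−1.17), at 752 and 1770 against 2731, 2652 and 2402 in vehicle. At puromycin 90 nM on day 3 the call was lost without vehicle replicate 1 (limma adjusted p = 0.63) or puromycin replicate 1 (0.2).

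In the upper steps of glycolysis, phosphofructokinase sets the pace of the pathway, and its 3 subunit genes were lower on day 5 with ARA-C and doxorubicin. PFKL fell in 13 of 17 comparisons and rose in 1, ARA-C 340 nM at 24 h (0.77 ± 0.22), a call lost without ARA-C replicate 2 (limma adjusted p = 0.087) or vehicle replicate 4 or 6. Its signals on day 5 were 113 and 95.4 with doxorubicin 120 nM, 159 and 149 with puromycin 90 nM and 239, 161 and 296 with ARA-C 170 nM, against 417, 413 and 389.6 in vehicle. No treated array reached the vehicle range. PFKM, the muscle-type subunit, fell in 9 comparisons, with −1.74 ± 0.17 at doxorubicin 120 nM and −1.60 ± 0.15 at ARA-C 170 nM on day 5, and was 2189 and 2667 with puromycin 90 nM against 3190, 3258 and 2915 in vehicle. PFKP, the platelet-type subunit, fell in 6 comparisons, all with ARA-C or doxorubicin. On day 5 it was 969 and 947 with doxorubicin 120 nM and 3642, 3327 and 3105 in vehicle (−1.81 ± 0.16), but 2856 and 3510 with puromycin 90 nM (−0.08 ± 0.16).

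PFKFB3, which makes the fructose 2,6-bisphosphate that activates phosphofructokinase, went the other way. It rose in 6 of 17 comparisons and fell in 0, most with ARA-C 340 nM on day 5, where it was 2298, 2230 and 2493 against 1230, 1552 and 1352 in vehicle (0.77 ± 0.12, limma adjusted p = 3.3e-07). GPI, which turns glucose 6-phosphate into fructose 6-phosphate, fell in 9 comparisons, with its largest change at doxorubicin 120 nM on day 5 (−1.01 ± 0.13). PFKFB4, a related enzyme, lay at or under the floor on 50 of 67 arrays. Its 2 calls, 55.1 and 51.7 with doxorubicin 120 nM on day 5 (1.80 ± 0.39) and values of 3.58 to 6.09 with ARA-C 340 nM on day 5 (−0.92 ± 0.35), rest on vehicle signals of 3.93 to 30.7. The second was lost on leaving out any 1 ARA-C array or vehicle replicate 4 (−0.69, limma adjusted p = 0.21) or 6.

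Aldolase cleaves fructose 1,6-bisphosphate, and the brain-type gene ALDOC showed the largest change of all members. Vehicle arrays on day 5 gave 707, 778 and 739 in rows A-F and 2729, 1937 and 2669 in rows G-H, where on day 3 they had given 90.4 and 109 in rows A-F and 99.3, 116 and 161 in rows G-H. The vehicle change between day 3 and day 5 was 2.90 ± 0.60 in rows A-F (limma adjusted p = 0.0011) and 4.30 ± 0.53 in rows G-H (4.6e-09). Treated cultures did not show this level: the day 5 signals were 73.6, 46.8 and 12.5 with ARA-C 170 nM, 76.6, 59.3 and 15.1 with ARA-C 340 nM, 28.25, 43.2 and 20.6 with doxorubicin 60 nM, 98.3 and 3.28 with doxorubicin 120 nM, and 133 and 114 with puromycin 90 nM. All of them lay below every vehicle array of day 5. Against vehicle of day 3 in the same rows, both puromycin arrays lay above (133 and 114 against 90.4 and 109), and those with ARA-C and doxorubicin 60 nM below.

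The ALDOC changes on day 5 were −4.40 ± 0.53 with ARA-C 170 nM (limma adjusted p = 1.1e-09), −5.88 ± 0.53 with ARA-C 340 nM (3.1e-13), −4.66 ± 0.53 with doxorubicin 60 nM (3.9e-10), −4.56 ± 0.60 with doxorubicin 120 nM (4.6e-09) and −2.59 ± 0.60 with puromycin 90 nM (0.0039). Without puromycin 90 nM replicate 2 the last was −2.48 and not called (0.085), with 1 array assumed to vary like the others. Before day 5 only doxorubicin 60 nM on day 3 passed the test (−2.16 ± 0.60, limma adjusted p = 0.0069), and it did not without doxorubicin replicate 1 (−1.58, 0.092) or vehicle replicate 2 (−2.02, 0.082). ALDOA, the main aldolase of most cells, had signals of 10390 to 24050, and its changes spanned −0.18 to 0.39 with 3 rises on day 5, while TPI1, triose phosphate isomerase, fell once (−0.29 ± 0.11, ARA-C 170 nM on day 5), a call lost without ARA-C replicate 1 (−0.20, limma adjusted p = 0.17), ARA-C replicate 3 or any 1 vehicle array.

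**Figure D2:**
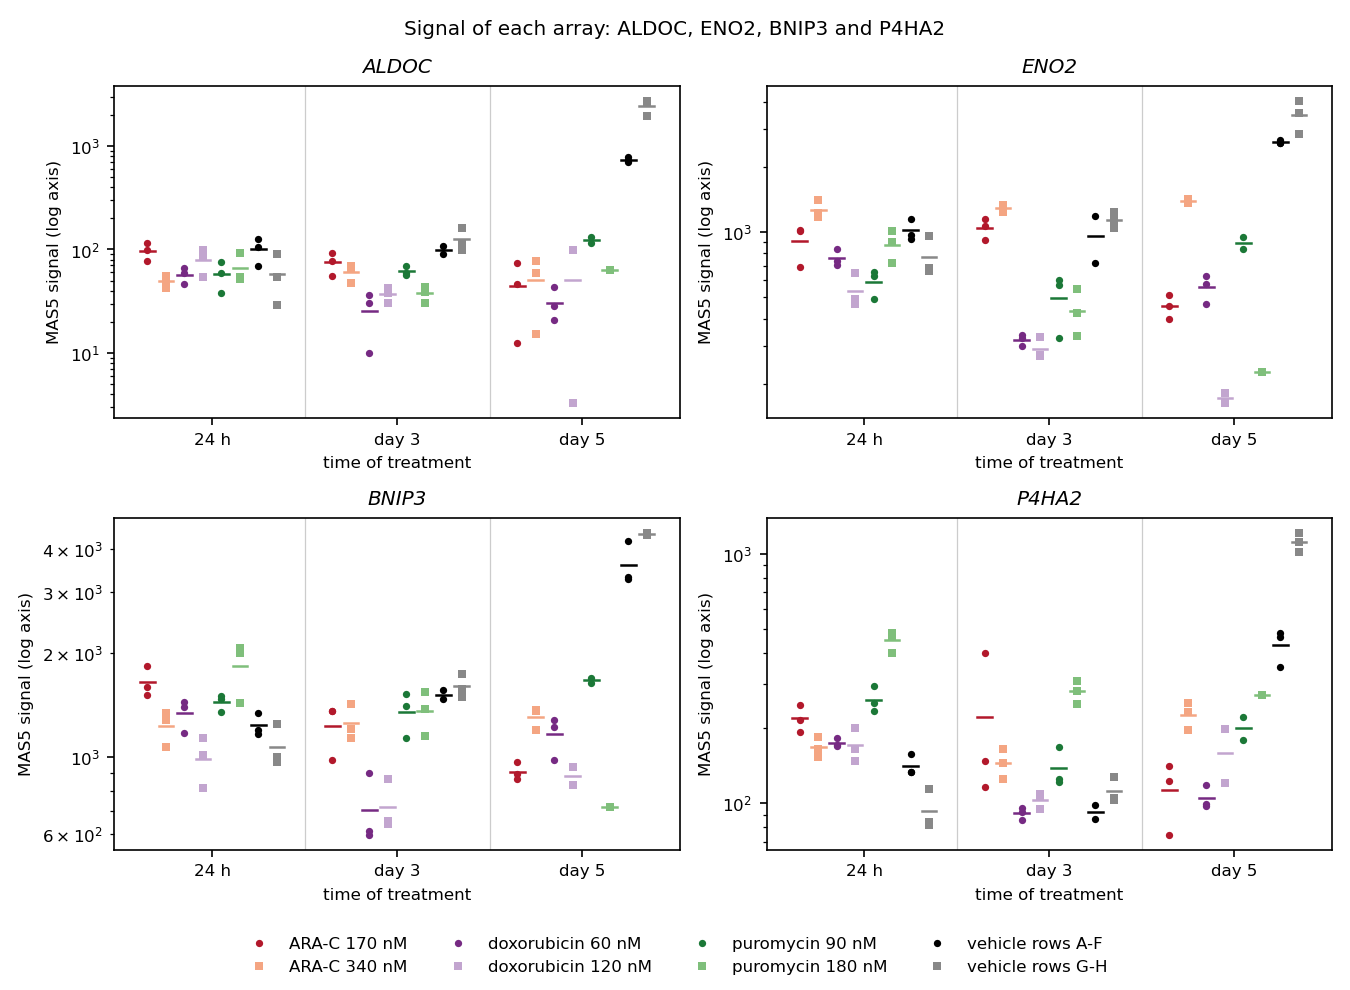
MAS5 signal of each array (log axis) for ALDOC, ENO2, BNIP3 and P4HA2 at 24 h, day 3 and day 5, with a bar at each group mean; treated groups stand left of vehicle of rows A-F (black circles) and rows G-H (grey squares), and lighter squares are the higher dose of a compound. On day 5 all vehicle arrays are above all treated arrays of the same plate rows.

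The enzymes of the lower steps of glycolysis were bright and, ENO2 apart, moved little. Signals were 13610 to 32010 for GAPDH, 10660 to 18830 for PGK1, 7509 to 14020 for PGAM1 and 9838 to 17100 for ENO1. Over the 17 comparisons PGK1, which makes the first ATP of the pathway, stayed within −0.40 and 0.28, ENO1 within −0.36 and 0.20 and PGAM1 within −0.17 and 0.53. GAPDH was called higher with ARA-C 170 nM (0.52 ± 0.18) and doxorubicin 120 nM (0.47 ± 0.20) on day 5, where the GAPDH 3′ to 5′ log2 ratio was 1.73 and 2.47 against 0.63 in vehicle. Without vehicle replicate 1 they were 0.31 and 0.27, neither called, and each was also lost without 1 treated array (ARA-C replicate 2 or doxorubicin replicate 3). After quantile normalization the change at doxorubicin 120 nM was −0.0656, so that its direction depended on the scaling. PKM, pyruvate kinase, fell in 4 comparisons, the most with puromycin 90 nM at 24 h (−0.65 ± 0.11, limma adjusted p = 2.4e-05).

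ENO2, the neuronal enolase, parted from ENO1. It was 163 and 182 with doxorubicin 120 nM on day 5, 629.8, 577 and 469 with doxorubicin 60 nM, 399, 458.5 and 512 with ARA-C 170 nM and 954 and 833 with puromycin 90 nM, against 2671, 2586 and 2588 in vehicle of rows A-F. With ARA-C 340 nM it was 1421, 1363 and 1374, against 3534, 2842 and 4023 in rows G-H. No treated array overlapped its vehicle, and the changes ran from −1.31 ± 0.19 (ARA-C 340 nM) to −3.92 ± 0.21 (doxorubicin 120 nM, limma adjusted p = 1.4e-21). ENO2 was already lower on day 3 with doxorubicin (−1.54 ± 0.21 at 60 nM and −1.69 ± 0.21 at 120 nM) and puromycin (−0.94 ± 0.21 and −1.12 ± 0.21), and was not called with ARA-C (0.17 ± 0.21 at 170 nM and 0.18 ± 0.19 at 340 nM). Both puromycin calls of day 3 were lost without vehicle replicate 1 (−0.59 and −0.76), and that at 90 nM also without puromycin replicate 1 (−0.66). In vehicle it was higher on day 5 than on day 3 by 1.50 ± 0.21 in rows A-F and 1.60 ± 0.19 in rows G-H.

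Of the genes for the fate of pyruvate, LDHA and LDHB, whose products interconvert pyruvate and lactate, were bright and steady. LDHA had 15680 to 21300 over 67 arrays and was called once, lower with doxorubicin 120 nM on day 5 (−0.34 ± 0.09), and LDHB was called once, higher with ARA-C 340 nM on day 5 (0.43 ± 0.13, and 0.38 without vehicle replicate 5, limma adjusted p = 0.054). PDK1, the kinase that holds pyruvate out of mitochondria, was dim. It was 7.43, 44.1 and 7.47 with ARA-C 340 nM on day 3, against 69.8, 87.1 and 114 in vehicle (−2.43 ± 0.55, limma adjusted p = 0.00074); 2 of those treated values lay under the floor.

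HIF1A, the oxygen-regulated subunit of the main hypoxia factor, had a nearly constant transcript. Its signals lay between 5656 and 8279, and 3 of 17 comparisons passed the test, all higher, by at most 0.38 ± 0.09 (ARA-C 340 nM, day 5). Those with ARA-C 340 nM on day 3 (0.27 without vehicle replicate 4, limma adjusted p = 0.072) and puromycin 90 nM at 24 h (0.25 without puromycin replicate 3, 0.14) were lost without single arrays. EGLN3, a prolyl hydroxylase that marks HIF proteins for decay, was dim and was called once, at 59.4, 54.6 and 53.1 with doxorubicin 120 nM at 24 h against 26.05, 16.8 and 6.84 in vehicle (1.77 ± 0.53), a call lost without vehicle replicate 3 (1.41, limma adjusted p = 0.12) or doxorubicin replicate 2. KDM3A, a hypoxia-inducible histone H3 lysine demethylase, was 4680, 4375 and 4072 with ARA-C 340 nM on day 3, against 2164, 2317 and 2124 in vehicle (0.99 ± 0.18, limma adjusted p = 3.8e-05). It rose in 5 comparisons and fell in 2, with ARA-C 170 nM and doxorubicin 120 nM on day 5, both of which turned positive after quantile normalization (0.23 and 0.0835). The fall with ARA-C 170 nM was −0.0851 without its replicate 2 (limma adjusted p = 0.79) and was lost as well without vehicle replicate 1 or 3.

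Among the secreted products ADM, which encodes the vasodilator peptide adrenomedullin, rose most. It was higher in 11 of 17 comparisons, all with ARA-C or doxorubicin, and lower in 2, both with puromycin at 24 h. With ARA-C 340 nM on day 5 it was 1456, 1378 and 1496, against 119.4, 74.5 and 110.4 in vehicle of rows G-H, a change of 3.86 ± 0.21 (limma adjusted p = 4.7e-21). The vehicle of rows A-F was higher (188, 242 and 284). In rows A-F on day 5, ADM was 1065, 740.0 and 849.6 with ARA-C 170 nM, 1695, 1685 and 1552 with doxorubicin 60 nM and 1007 and 919 with doxorubicin 120 nM, changes of 1.90 ± 0.21, 2.81 ± 0.21 and 2.04 ± 0.24.

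ADM was already higher at 24 h with doxorubicin and with ARA-C 340 nM, and with ARA-C 170 nM only from day 3. ARA-C 340 nM gave 864, 822 and 852.5 at 24 h, against 328, 530 and 516 in vehicle of rows G-H. At 24 h ADM was 977.5, 1243 and 1152 with doxorubicin 60 nM and 2008, 1827 and 1565 with doxorubicin 120 nM, against 350.7, 422 and 327 in vehicle (1.62 ± 0.21 and 2.30 ± 0.21). ARA-C 170 nM gave 417, 390.2 and 399.9 at 24 h (0.14 ± 0.21, limma adjusted p = 0.77) and 1117, 1065 and 854 on day 3 (1.64 ± 0.24). Puromycin 90 nM gave 132.5, 185.5 and 200.4 at 24 h, below every vehicle array (−1.10 ± 0.21, limma adjusted p = 0.00022), and 294.5 and 263 on day 5 (0.25 ± 0.24, limma adjusted p = 0.76).

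STC1, the secreted glycoprotein stanniocalcin, rose with ARA-C and doxorubicin on day 3 and fell with puromycin. On day 3 it was 735, 809.7 and 709.5 with ARA-C 170 nM and 751, 911 and 809 with doxorubicin 60 nM, against 305 and 176 in vehicle (1.70 ± 0.28 and 1.83 ± 0.28). By day 5 the changes were 0.02 ± 0.25 and 0.14 ± 0.25, neither of them called, with vehicle arrays at 448.5, 247 and 357. With ARA-C 340 nM STC1 stayed high, at 1092, 915 and 1120 on day 5 against 275, 219 and 291 in rows G-H (2.00 ± 0.25). Puromycin 90 nM gave 103 and 83.2 on day 5, below all vehicle arrays (−1.88 ± 0.28, limma adjusted p = 4.9e-06), and puromycin 180 nM 77.2, 56.6 and 52.8 on day 3 (−1.92 ± 0.28).

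VEGFA, the main angiogenic growth factor, was bright (2728 to 8841) and its tested changes lay between −0.54 and 0.51 on the log2 scale. It was higher on day 3 with ARA-C 340 nM (0.51 ± 0.12), doxorubicin 60 nM (0.45 ± 0.13) and doxorubicin 120 nM (0.44 ± 0.13), and lower on day 5 with ARA-C 170 nM (−0.54 ± 0.12) and doxorubicin 120 nM (−0.50 ± 0.13), the last with 0.0326 after quantile normalization. Both doxorubicin rises of day 3 were lost without vehicle replicate 2 (0.43 and 0.42, limma adjusted p = 0.11 and 0.12) or replicate 1, and that at 120 nM also without doxorubicin replicate 1 or 3.

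**Figure D3:**
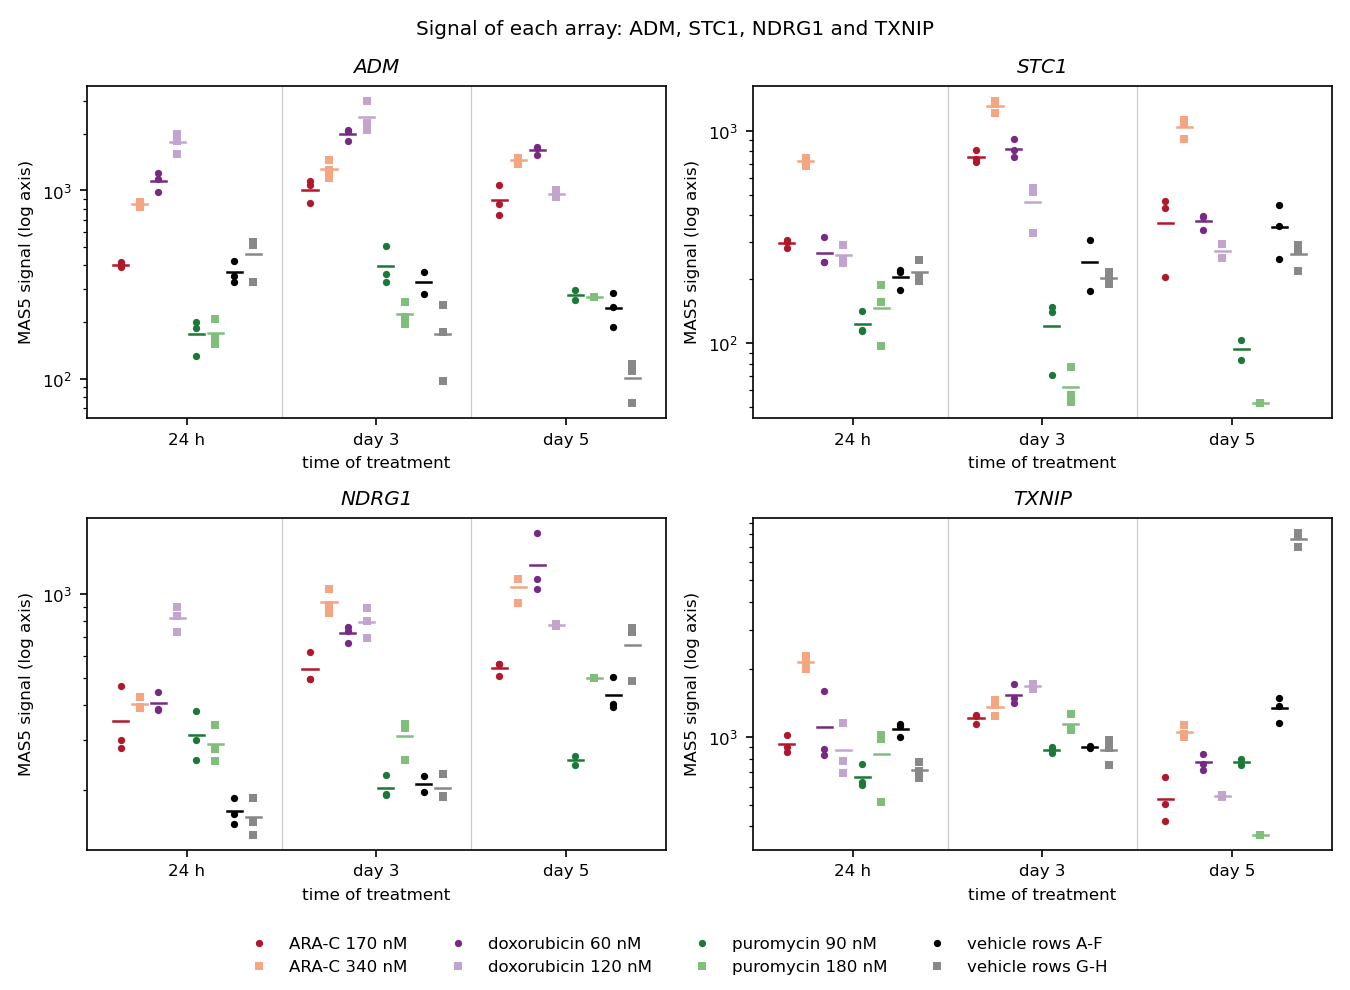
MAS5 signal of each array (log axis) for ADM, STC1, NDRG1 and TXNIP at 24 h, day 3 and day 5, with a bar at each group mean; symbols for treated groups and vehicle are in the legend, squares being the higher dose or vehicle of rows G-H. ADM with ARA-C and doxorubicin is above vehicle on days 3 and 5, STC1 with puromycin is below it, and TXNIP in vehicle of rows G-H on day 5 (7030 to 8100) is above all other arrays.

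Of the intracellular products NDRG1 mostly rose, while BNIP3 and P4HA2 were lower in all 5 day 5 comparisons, BNIP3L in 4 and P4HA1 in 2. NDRG1, a stress-inducible gene named for its regulation by N-myc, was higher in 13 of 17 comparisons and lower in 1. At 24 h it was 899.9, 834 and 731.5 with doxorubicin 120 nM, against 164, 186 and 151 in vehicle (2.30 ± 0.18, limma adjusted p = 3.1e-14), and at puromycin 90 nM 301, 255 and 381 (0.89 ± 0.18). On day 5 it was 1648, 1038 and 1128 with doxorubicin 60 nM against 506, 403 and 396 in vehicle (1.53 ± 0.18). Vehicle of rows A-F was itself higher on day 5 than on day 3, by 1.04 ± 0.20, and puromycin 90 nM had 192, 225 and 192 on day 3. Puromycin 90 nM on day 5 was the 1 fall, at 263 and 245.5 (−0.77 ± 0.20, limma adjusted p = 0.012), and it was lost without puromycin replicate 1 (0.078) or 2 (0.17) or vehicle replicate 1 (0.084).

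BNIP3 and BNIP3L encode outer mitochondrial membrane receptors for the removal of mitochondria. BNIP3 on day 5 was 892, 863.5 and 965 with ARA-C 170 nM, 983, 1278 and 1225 with doxorubicin 60 nM, 828 and 935 with doxorubicin 120 nM and 1693 and 1638 with puromycin 90 nM, against 4203, 3269 and 3322 in vehicle of rows A-F. With ARA-C 340 nM it was 1368, 1197 and 1357 against 4383, 4442 and 4385 in rows G-H. The groups did not overlap, and the changes were −1.98 ± 0.15, −1.63 ± 0.15, −2.02 ± 0.17, −1.10 ± 0.17 and −1.75 ± 0.15 in that order. Vehicle was itself higher on day 5 than on day 3, by 1.24 ± 0.17 in rows A-F and 1.46 ± 0.15 in rows G-H. On day 3 BNIP3 was lower with doxorubicin alone, by −1.13 ± 0.17 at 60 nM and −1.09 ± 0.17 at 120 nM; the rise with puromycin 180 nM at 24 h (0.55 ± 0.15) was −0.0806 with the second probe set, and was lost without puromycin replicate 3 (0.46, limma adjusted p = 0.092), puromycin replicate 2 or vehicle replicate 2 or 3.

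BNIP3L fell on day 5 with ARA-C and doxorubicin, from −0.54 ± 0.17 at doxorubicin 60 nM to −2.15 ± 0.19 at doxorubicin 120 nM, where it was 815 and 1006 against 4082, 3988 and 3946 in vehicle. With puromycin 90 nM it was 2788 and 2887 (−0.50 ± 0.19, limma adjusted p = 0.15). The call at doxorubicin 60 nM was lost without its replicate 2 (−0.38, limma adjusted p = 0.14).

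The collagen prolyl 4-hydroxylase subunits P4HA1 and P4HA2 differed from each other. P4HA2 was higher in 5 comparisons before day 5 and lower in all 5 on day 5. At 24 h it was 401, 469.7 and 482 with puromycin 180 nM, against 157, 133 and 133 in vehicle (1.68 ± 0.25, limma adjusted p = 8.6e-06), and on day 3 281.5, 251 and 310.2 against 98.1 and 86.6 (1.60 ± 0.28). On day 5 it was 74.7, 123 and 141 with ARA-C 170 nM, 97, 118 and 98.9 with doxorubicin 60 nM, 198 and 120.3 with doxorubicin 120 nM and 222 and 179 with puromycin 90 nM, against 481, 464 and 351.4 in vehicle. All were below vehicle, with changes between −1.10 ± 0.28 (puromycin 90 nM, limma adjusted p = 0.011) and −2.04 ± 0.25 (doxorubicin 60 nM) in rows A-F. The fall with puromycin 90 nM was not called without its replicate 2 (−0.95, limma adjusted p = 0.22) or vehicle replicate 1 or 2, and the rise with ARA-C 170 nM on day 3 not without its replicate 3 (0.51, limma adjusted p = 0.26) or either vehicle array. ARA-C 340 nM gave 232, 197 and 251 against 1016, 1118 and 1212 in rows G-H (−2.30 ± 0.25). As with ALDOC, the vehicle level was itself higher on day 5 than on day 3, by 2.22 ± 0.28 in rows A-F and 3.33 ± 0.25 in rows G-H. P4HA1 was called in 4 comparisons, with its largest change at doxorubicin 120 nM on day 5 (−1.56 ± 0.16).

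TXNIP binds thioredoxin, restrains glucose uptake and follows intracellular glucose metabolites. It was higher on day 3 and lower on day 5 with doxorubicin and with ARA-C 340 nM. On day 3 it was 1496, 1717 and 1415 with doxorubicin 60 nM and 1726, 1632 and 1696 with doxorubicin 120 nM, against 914 and 897 in vehicle (0.76 ± 0.20 and 0.90 ± 0.20). On day 5 it was 758, 715 and 838 with doxorubicin 60 nM, 540.0 and 549 with doxorubicin 120 nM, 665, 423 and 502 with ARA-C 170 nM and 754 and 796 with puromycin 90 nM, against 1374, 1498 and 1150 in vehicle. These falls were −0.79 ± 0.18, −1.29 ± 0.20, −1.36 ± 0.18 and −0.78 ± 0.20 (limma adjusted p = 0.011 for the last), and no treated array reached the vehicle range. The last was lost without puromycin replicate 1 (0.14) or 2 (0.094) or vehicle replicate 2 (0.073). With ARA-C 340 nM TXNIP was 2140, 2006 and 2298 at 24 h, against 773, 654.5 and 706 in rows G-H (1.60), its largest rise. On day 3 the change with ARA-C 340 nM was 0.65. On day 5 TXNIP with ARA-C 340 nM was 1136, 1001 and 1029, against 8100, 7030 and 7821 in rows G-H (−2.86 ± 0.18). The vehicle of rows G-H was itself 2.52 above that of rows A-F on the log2 scale.

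Whether the day 5 change differed from the day 3 change was tested directly within each treated group, a comparison chosen after the values were seen. With ARA-C 170 nM, 0 members had a higher and 19 a lower change on day 5 (1.15% and 27.3% of all genes), and with ARA-C 340 nM 4 and 9 (5.21% and 13.9%). Doxorubicin 60 nM gave 0 and 5 (1.03% and 4.09%; 0 and 2 without vehicle replicate 2 of day 3) and doxorubicin 120 nM 1 and 20 (2.95% and 30.2%). Puromycin 90 nM gave 0 and 0 (0.143% and 0.0421% of all genes). A common median gave 1 higher and 7 lower with ARA-C 170 nM, and quantile normalization 2 and 11 with ARA-C 170 nM, 1 and 7 with doxorubicin 60 nM and 3 and 10 with doxorubicin 120 nM. For P4HA2 the difference was −3.02 ± 0.38 with ARA-C 170 nM, −2.68 ± 0.36 with ARA-C 340 nM and −2.02 ± 0.38 with doxorubicin 60 nM, and for TXNIP −1.77 ± 0.27, −3.51 ± 0.25 and −1.56 ± 0.27. For ALDOC it was −3.98 ± 0.80 with ARA-C 170 nM and −4.84 ± 0.75 with ARA-C 340 nM. These differences include the vehicle's own move from day 3 to day 5. For P4HA2, TXNIP and ALDOC it was 2.22, 0.56 (not called) and 2.90 in rows A-F and 3.33, 3.14 and 4.30 in rows G-H. P4HA2 with ARA-C 340 nM was itself 125, 165 and 144.5 on day 3 and 232, 197 and 251 on day 5.

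The compounds were then set against each other at the EC50 over days 3 and 5, within rows A-F. These 3 pairs share arrays. ARA-C 170 nM differed from doxorubicin 60 nM in 15 members, 6 higher and 9 lower (12.1% and 20.1% of all genes), and quantile normalization turned that split to 9 and 6. ARA-C 170 nM differed from puromycin 90 nM in 20, 10 higher and 10 lower (19.1% and 29.8%), or 14 and 6 after quantile normalization and 4 and 15 with a common median. Doxorubicin 60 nM differed from puromycin 90 nM in 16, 7 higher and 9 lower (16% and 22.9%), or 10 and 6 and 4 and 10 under those scalings. Without ARA-C 170 nM day 3 replicate 3, ARA-C had 5 higher and 7 lower against doxorubicin, and 9 and 8 against puromycin.

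ADM, STC1 and NDRG1 showed the largest differences of the members from puromycin, and ALDOC and ADM the largest between ARA-C and doxorubicin. ADM was higher with ARA-C than with puromycin by 1.51 ± 0.16 (limma adjusted p = 4e-11), higher with doxorubicin than with puromycin by 2.46 ± 0.16 (1.4e-18), and lower with ARA-C than with doxorubicin (−0.95 ± 0.15, 2.1e-06). STC1 was 2.31 ± 0.18 higher with ARA-C and 2.43 ± 0.18 higher with doxorubicin than with puromycin, and the difference between ARA-C and doxorubicin, −0.12 ± 0.17, was not called. NDRG1 had 1.25 ± 0.13 for ARA-C over puromycin, 2.06 ± 0.13 for doxorubicin over puromycin and −0.82 ± 0.13 for ARA-C over doxorubicin. HK2 and PFKP ran opposite: HK2 was lower with ARA-C (−0.88 ± 0.13) and doxorubicin (−1.27 ± 0.13) than with puromycin, and PFKP likewise (−0.94 ± 0.11 and −1.17 ± 0.11). ALDOC was lower with doxorubicin than with puromycin (−1.77 ± 0.40) and higher with ARA-C than with doxorubicin (1.00 ± 0.38, limma adjusted p = 0.041), the last lost on leaving out any 1 of 7 arrays, with 0.71 without doxorubicin 60 nM day 3 replicate 1 (limma adjusted p = 0.18).

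**Figure D4:**
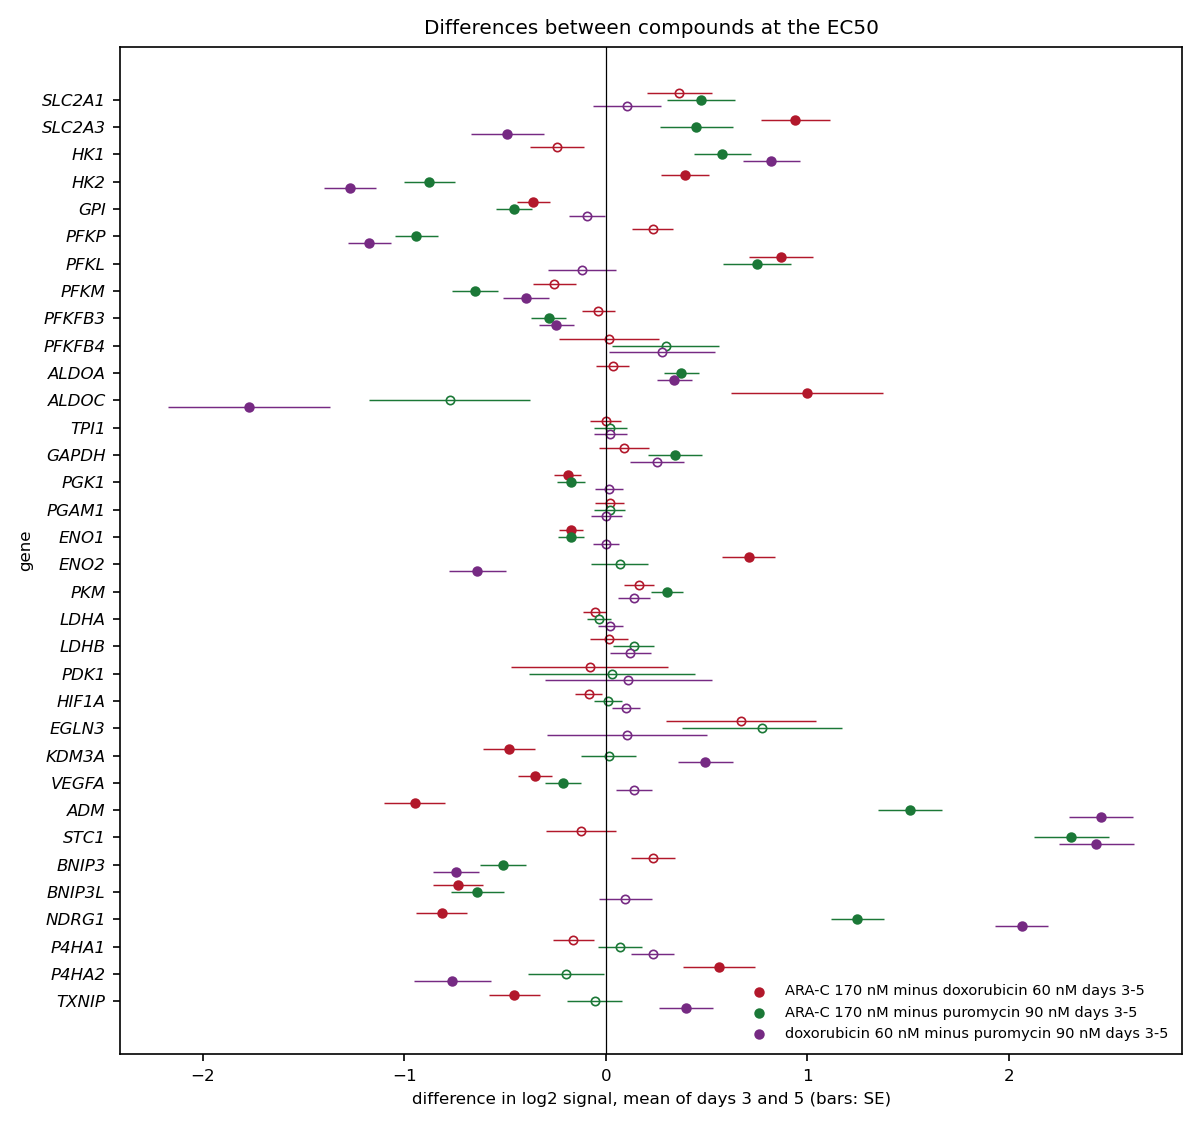
Differences between compounds at the EC50 over days 3 and 5 on the log2 scale (points, with SE as bars) for the 34 genes; filled points passed the test and open ones did not. ADM, STC1 and NDRG1 are higher and HK2 and PFKP lower with ARA-C and doxorubicin than with puromycin.

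Doxorubicin allowed a comparison of doses within the same plate rows. Over days 3 and 5, 3 members were higher and 7 lower at 120 nM than at 60 nM (6.23% and 21% of all genes), or 5 and 6 after quantile normalization. SLC2A1 (0.53 ± 0.17), PKM (0.32 ± 0.08) and PFKFB4 (0.93 ± 0.26) were higher, and SLC2A1 had −0.0927 with its second probe set. BNIP3L (−0.99 ± 0.13), ENO2 (−0.92 ± 0.14), P4HA1 (−0.75 ± 0.11), HK1 (−0.74 ± 0.14), KDM3A (−0.68 ± 0.14), STC1 (−0.67 ± 0.18) and GPI (−0.28 ± 0.09) were lower. Without doxorubicin 120 nM replicate 1 of day 5, SLC2A1 (0.40, limma adjusted p = 0.16) and GPI (−0.22, 0.15) were not called, nor without replicate 1 of day 3. The ACTB ratio on day 5 was 4.55 at 120 nM and 2.48 at 60 nM, and its part in these differences was not tested.

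A further list of 45 genes of the same pathways, of which 37 were measured, was read in the same way. On day 5 it had 2 higher and 24 lower with ARA-C 170 nM (8.66% and 39.3% of all genes), 3 and 19 with ARA-C 340 nM (14.3% and 21.3%), 3 and 19 with doxorubicin 60 nM (11.8% and 27.1%), 2 and 24 with doxorubicin 120 nM (14.2% and 40%) and 0 and 7 with puromycin 90 nM (1.91% and 3.98%). At 24 h the counts were 5 and 6 (6.12% and 12.1%), 7 and 1 (9.06% and 1.78%), 3 and 1 (2.34% and 4.38%), 7 and 6 (6.78% and 10.4%) and 2 and 7 (2.32% and 12.4%) in the same order. EPAS1, the HIF-2 alpha subunit, which pairs with ARNT in place of HIF1A, rose with ARA-C and doxorubicin. It was 537, 584 and 475 with doxorubicin 60 nM on day 3, against 48.2 and 21.4 in vehicle (4.05 ± 0.54, limma adjusted p = 6.9e-08), and 189, 157 and 278.0 with ARA-C 170 nM (2.66 ± 0.54). Puromycin 90 nM gave 27.1, 36.9 and 2.81 (−0.57 ± 0.54, not called). Set directly against puromycin over days 3 and 5, EPAS1 was higher by 4.51 ± 0.36 with doxorubicin (limma adjusted p = 3.1e-15) and by 3.07 ± 0.36 with ARA-C (6.7e-10).

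PCK2, DDIT4 and PLOD2 of that list were higher early and lower on day 5 with ARA-C and doxorubicin. Vehicle was itself higher on day 5 than on day 3. In rows A-F the difference was 0.96 ± 0.21 for PCK2, 1.07 ± 0.20 for DDIT4 and 0.82 ± 0.17 for PLOD2. In rows G-H it was 2.23 ± 0.19, 2.00 ± 0.18 and 0.93 ± 0.15. PCK2, mitochondrial PEP carboxykinase, was higher in 7 and lower in 8 comparisons. With doxorubicin PCK2 was already below vehicle on day 3, with means of 355.8 at 60 nM and 184.3 at 120 nM against 841.1. It was 727, 685 and 612 with ARA-C 170 nM at 24 h against 207, 259 and 223.5 in vehicle (1.56 ± 0.19), and 87.8 and 180.5 with doxorubicin 120 nM on day 5 against 1479, 2235 and 1335 (−3.70 ± 0.21, limma adjusted p = 1.4e-20). DDIT4, an inhibitor of mTORC1 signalling, had 1.98 ± 0.18 with ARA-C 170 nM at 24 h and −2.32 ± 0.18 on day 5, and −2.07 ± 0.20 with puromycin 90 nM on day 5. Its mean with puromycin 90 nM was 753.5 on day 3 and 611.8 on day 5, and in vehicle of rows A-F 1223 and 2595. PLOD2, a collagen lysyl hydroxylase, was higher in 9 and lower in 4 comparisons, all 4 on day 5. With puromycin 90 nM, too, its early means lay above vehicle, at 2643 against 1739 at 24 h and 2602 against 1418 on day 3. BHLHE40, a hypoxia-inducible repressor, was higher in 6, all with ARA-C or doxorubicin, and lower in 4, of which 3 were with puromycin.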

How the data were processed

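The authors deposited one table of MAS5 signal intensity for 68 arrays, on a linear scale and scaled to a common mean; the MAS5 version is not given in the sources used here. Of 22930 probe sets, 715 controls were left out. Of the 22215 tested, 19230 had 1 gene symbol in the platform annotation, 125 several and 2860 none. Signals under 10 were set to 10 and log2 was taken. A model with 1 mean for each time, dose and plate part was fitted to 67 arrays with limma 3.58.1 (R 4.3.3), which shares 1 estimate of the spread, with Benjamini-Hochberg adjustment of p-values across the 22215 probe sets (threshold 0.05). Each treated group was set against vehicle of its time and plate part. The plate part was taken from the plate positions that the study's supplementary material lists, matched to the sample titles, and the labels call the samples biological replicates. A gene was its brightest probe set by mean signal. The script was tested on simulated data. Tables and figures were made with Python 3.11.15, pandas 2.3.3 and matplotlib 3.10.9.

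Every member was named, with values per array for the largest called changes of each compound and at least 1 member per role, and the 5 other pathway genes called most often. Members and lists were chosen with earlier results of these data known. Alternatives were quantile normalization, a common median, a floor of 32, a cap of 16000, no dim probe sets (under the 40th percentile), vehicle of both plate parts, the plate part or the replicate number as a block, the blood-like array kept, the second brightest probe set and leaving out each array. The day 5 minus day 3 comparison and the arrays of rows A-F alone were chosen after the data were seen.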

Additional observations from a re-analysis of the deposited data

Results flagged for a closer look

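Of 102 groups of signals tested for a sample far from the others, 3 had one, where chance gives about 1 in 20 groups. SLC2A3 was 183.7 in vehicle replicate 3 of rows A-F at 24 h, and 275.4 to 340.6 in the other vehicle arrays of that time. HK1 was 2399 in vehicle replicate 2 of rows A-F on day 3, and 3166 to 3314 in the others. PFKFB4 was 12.94 in vehicle replicate 1 of rows A-F at 24 h, and 1.867 to 5.464 in the others, under the floor.

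Compounds differed directly in 15 members for ARA-C 170 nM against doxorubicin 60 nM (6 higher and 9 lower, beside 12.1% and 20.1% of all genes). ARA-C 170 nM against puromycin 90 nM had 20 (10 and 10, beside 19.1% and 29.8%). Doxorubicin 60 nM against puromycin 90 nM had 16 (7 and 9, beside 16% and 22.9%). The day 5 change differed from the day 3 change in 19 members with ARA-C 170 nM (0 higher and 19 lower, beside 1.15% and 27.3% of all genes). ARA-C 340 nM had 13 (4 and 9, beside 5.21% and 13.9%) and doxorubicin 60 nM 5 (0 and 5, beside 1.03% and 4.09%). Doxorubicin 120 nM had 21 (1 and 20, beside 2.95% and 30.2%) and puromycin 90 nM 0 (beside 0.143% and 0.0421%).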

How the results depend on the processing

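Counts of members called are given for each alternative where they moved by over 1.5 times. Quantile normalization gave 11 for ARA-C 170 nM at 24 h, 8 on day 3 and 3 for puromycin 90 nM on day 3, and for the day 5 minus day 3 change 8 with doxorubicin 60 nM, 13 with doxorubicin 120 nM and 2 with puromycin 90 nM. A common median gave 9 for ARA-C 170 nM on day 3, 14 for ARA-C 340 nM at 24 h, 3 for doxorubicin 60 nM at 24 h, 0 for puromycin 90 nM on day 3, 0 between vehicle parts at 24 h and 0 on day 3, and for the day 5 minus day 3 change 8 with ARA-C 170 nM, 3 with doxorubicin 60 nM and 1 with puromycin 90 nM. A floor of 32 gave 2 between vehicle parts on day 3 and 1 for the puromycin 90 nM day 5 minus day 3 change; a cap of 16000 gave 2 between vehicle parts on day 3. Without dim probe sets there were 11 for ARA-C 170 nM at 24 h, 2 between vehicle parts on day 3, and 8 with doxorubicin 60 nM and 1 with puromycin 90 nM for the day 5 minus day 3 change. Vehicle of both plate parts gave 3 for doxorubicin 60 nM at 24 h, 3 for puromycin 90 nM on day 3 and 14 on day 5, and 8 with ARA-C 340 nM, 14 with doxorubicin 60 nM and 4 with puromycin 90 nM for the day 5 minus day 3 change. The plate part as a block gave 8 for ARA-C 170 nM on day 3, 5 for ARA-C 340 nM at 24 h, and 8, 16 and 5 for those 3 changes. The second brightest probe set gave 3 for puromycin 90 nM on day 3 and 1 for its day 5 minus day 3 change. The cause of these moves was not tested.

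With the blood-like array kept, counts were 3 for ARA-C 170 nM at 24 h, 12 on day 5, 4 for ARA-C 340 nM at 24 h, 5 on day 3, 2 for doxorubicin 60 nM at 24 h, 7, 1 and 23 for puromycin 90 nM at 24 h, day 3 and day 5, 4 for puromycin 180 nM at 24 h, 8 for ARA-C against doxorubicin, 13 for ARA-C against puromycin, 6 for the doxorubicin dose, and 9, 7, 1 and 11 for the day 5 minus day 3 change with ARA-C 170 nM, ARA-C 340 nM, doxorubicin 60 nM and doxorubicin 120 nM.

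The labels number the replicates, but same-numbered treated and vehicle arrays of rows A-F did not deviate together: 35 pairs had correlations of −0.101 to 0.0742, 0 of them over 0.1. Pairs with other numbers had −0.103 to 0.0926. With deviations from the means of such small groups, this cannot show whether arrays of 1 number shared a culture or batch. The replicate block, fitted on rows A-F, gave 4 for ARA-C 170 nM at 24 h and 1 for puromycin 90 nM on day 3, and the arrays of rows A-F alone gave 4 and 1 as well; the other 20 counts of each kept within 1.5 times.

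Leaving out each array gave 3 to 8 for ARA-C 170 nM at 24 h, 5 to 9 for ARA-C 340 nM at 24 h (5 without vehicle replicate 6), 2 to 6 for doxorubicin 60 nM at 24 h, 7 to 10 for puromycin 180 nM at 24 h, 0 to 5 for puromycin 90 nM on day 3 and 4 to 9 on day 5 (4 without its replicate 2), 2 to 5 for the doxorubicin 60 nM day 5 minus day 3 change, and 0 to 1 for vehicle of rows A-F between 24 h and day 3 and between vehicle parts at 24 h and on day 3. Where 1 array remained, it was assumed to vary like the other groups.

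Single genes changed sign as follows. With the second probe set, SLC2A3 had −0.20 with ARA-C 170 nM at 24 h, −0.045 in vehicle of rows G-H from day 3 to 5 and 0.29 for doxorubicin over puromycin; PGK1 −0.68 with doxorubicin 120 nM at 24 h and −0.31 in vehicle of rows A-F from day 3 to 5; BNIP3 −0.0806 with puromycin 180 nM at 24 h; PKM 0.0008 with puromycin 180 nM on day 3; ENO1 0.15 between vehicle parts on day 5; SLC2A1 −0.0927 between doxorubicin doses; and PFKL 0.0333 for the ARA-C 170 nM day 5 minus day 3 change. After quantile normalization on day 5, KDM3A had 0.23 and P4HA1 0.0872 with ARA-C 170 nM, and GAPDH −0.0656, KDM3A 0.0835 and VEGFA 0.0326 with doxorubicin 120 nM. For ARA-C over puromycin it gave PFKFB3 0.0663 and VEGFA 0.11. With the blood-like array kept, TXNIP had 0.45 with puromycin 90 nM on day 5 and −0.22 for doxorubicin over puromycin, and for ARA-C over puromycin SLC2A1 had −0.33, GPI 0.25, PGK1 0.26, ENO1 0.37 and VEGFA 0.24. With a common median P4HA1 had −0.0039 in vehicle of rows G-H from day 3 to 5, GPI −0.14 and VEGFA −0.0325 between vehicle parts on day 5, PKM −0.0013 for ARA-C over puromycin, and TPI1 0.0312, PGK1 0.0174 and ENO1 0.0639 for the ARA-C 170 nM day 5 minus day 3 change. Signals near the floor, as of PFKFB4, PDK1, EGLN3 and ALDOC, have little precision.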
